A study of Mus musculus with 8 samples.

Results

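Apoptosis draws on caspases, mitochondrial death effectors and inhibitors of apoptosis. Of the 38991 genes listed in the deposited tables, 7 were described here because they encode such proteins. These are the initiator caspases Casp2, Casp8 and Casp9, the adaptor Apaf1, cytochrome c (Cycs), Diablo and Xiap. They were chosen by gene symbol, and each symbol had 1 row. All 7 were annotated as protein coding, and their start and end on mm10 matched GENCODE release vM21.

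Caspases are proteases that stay inactive until a platform brings them together. When the outer mitochondrial membrane is opened, cytochrome c leaves the intermembrane space and binds Apaf1, which then assembles into the apoptosome and activates caspase-9. Diablo, also called Smac, is released at the same time and binds Xiap, an inhibitor of caspases, while caspase-8 is activated at death receptors and caspase-2 at the PIDDosome. Embryonic stem cells are known for a mitochondrial pathway held close to its threshold, so that DNA damage kills them readily.

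The libraries were made from male mouse embryonic stem cells of strain C57BL/6, derived from blastocysts of embryonic day 3.5 on feeder fibroblasts and moved to 2i ground state medium, which holds cells in a naive state. The 4 iPKO libraries carry an induced knockout of Prmt5, the arginine methyltransferase of the Sm proteins of the spliceosome, and the 4 iPHet libraries are the controls. Both genotypes received 2 µM 4-hydroxytamoxifen for 48 hours, the agent that brings about the deletion, and then fresh medium, so the drug is shared and is not a difference between them. The labels name 1 line per genotype for most experiments (PC4 for iPKO, PC1 for iPHet), so genotype and line cannot be told apart, and the name iPHet reads as a heterozygous control. Neither the Cre driver nor the time of collection is given in the sources used here. Nothing in the labels ties the 4 libraries of a genotype to separate cultures, and p-values then rest on a spread between libraries that may be technical. In bulk RNA, fewer cells of a kind and less RNA per cell cannot be told apart.

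Values are FPKM, fragments scaled to transcript length and to library size, so levels of different genes can be compared per length. Differences are iPKO minus iPHet on the log2(FPKM + 1) scale, which understates the change of low genes, and a gene was called where limma gave a Benjamini-Hochberg adjusted p under 0.05 over all 12462 tested genes. Prmt5 was 11.8, 14.5, 12.4 and 15.0 FPKM in iPKO 1 to 4, against 52.8, 70.8, 54.3 and 72.2 FPKM in iPHet 1 to 4. It was low in every library labelled iPKO, with a log2 difference of -2.13 (SE 0.13, limma adjusted p = 0.000171). Each library summed to between 411827 and 458856 FPKM, and without counts the sequencing depth is unknown. The sums were not even: iPHet 1 and iPHet 3 reached 458856 and 458690 FPKM, and no other library exceeded 421412 FPKM. The high sums thus fell on the odd-numbered iPHet libraries, and their part in the results was not tested beyond the rescalings. Of the 8 stem cell markers all were tested, their summed level was 1411 to 1504 FPKM in iPKO and 1437 to 1676 FPKM in iPHet, and Sox2 alone was called, lower in iPKO. Of 8 fibroblast markers Thy1 was tested and not called. The summed level of the 8 was 1.60 to 2.07 FPKM in iPKO and 1.94 to 2.82 FPKM in iPHet, with Postn and Lum listed at 0 in all libraries. The part of feeder RNA in the results was not tested. Libraries with odd numbers (1 and 3) stood apart from those with even numbers (2 and 4) in both genotypes, a split the labels do not explain: 54.9% of tested genes differed between odd and even numbers (limma adjusted p under 0.05, fit with both terms, chosen after the data were seen). Values within the odd and the even libraries are therefore given beside the pooled ones.

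The promoters of 4 of the 7 genes are shown because their transcripts were the ones with the smallest p between the genotypes: Cycs, Casp9 and Diablo, which were lower in every iPKO library, and Apaf1, which differed in the other direction. The sequences are RefSeq's, on GRCm38.p6, from 250 bases before the RefSeq start and 50 from it on, written in the direction of transcription. That start is base 50566569 for Cycs, 123524164 for Diablo and 91082743 for Apaf1, each unlike the gene's start in the deposited files, and 141793612 for Casp9, the same as there. Capitals mark the core of the cyclic AMP response element, TGACG or CGTCA on the other strand, and the GC box, GGGCGG or CCGCCC on the other strand.
Cycs, chr6:50566520-50566819, minus strand: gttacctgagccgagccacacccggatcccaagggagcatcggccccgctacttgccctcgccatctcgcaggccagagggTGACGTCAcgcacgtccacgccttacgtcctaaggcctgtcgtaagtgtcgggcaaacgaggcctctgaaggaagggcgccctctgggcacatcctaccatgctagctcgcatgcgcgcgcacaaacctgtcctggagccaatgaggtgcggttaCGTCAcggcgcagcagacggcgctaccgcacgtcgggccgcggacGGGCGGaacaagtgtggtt
Casp9, chr4:141793362-141793661, plus strand: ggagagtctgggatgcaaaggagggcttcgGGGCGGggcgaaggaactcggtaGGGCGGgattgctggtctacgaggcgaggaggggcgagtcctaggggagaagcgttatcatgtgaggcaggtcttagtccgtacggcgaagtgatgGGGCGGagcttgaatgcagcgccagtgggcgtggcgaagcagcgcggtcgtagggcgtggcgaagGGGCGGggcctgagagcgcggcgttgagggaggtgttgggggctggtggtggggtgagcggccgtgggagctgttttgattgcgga
Diablo, chr5:123524115-123524414, minus strand: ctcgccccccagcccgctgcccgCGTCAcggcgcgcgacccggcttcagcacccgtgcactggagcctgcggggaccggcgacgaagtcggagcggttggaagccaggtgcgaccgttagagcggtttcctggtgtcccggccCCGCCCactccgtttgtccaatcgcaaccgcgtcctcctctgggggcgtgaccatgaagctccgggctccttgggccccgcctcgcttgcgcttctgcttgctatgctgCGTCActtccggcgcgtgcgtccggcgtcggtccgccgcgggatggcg
Apaf1, chr10:91082694-91082993, minus strand: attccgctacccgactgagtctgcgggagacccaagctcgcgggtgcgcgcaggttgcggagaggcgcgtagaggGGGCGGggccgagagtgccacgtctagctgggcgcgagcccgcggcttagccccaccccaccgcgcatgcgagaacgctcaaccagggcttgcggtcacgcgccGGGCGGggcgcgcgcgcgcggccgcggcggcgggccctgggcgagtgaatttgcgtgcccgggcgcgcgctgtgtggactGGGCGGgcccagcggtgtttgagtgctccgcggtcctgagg

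In the Cycs promoter the letters TGACGTCA, the full cyclic AMP response element, stood from -169 to -162, counting the RefSeq start as 0, and a pair of overlapping cores make it up. Another core stood from -14 to -10. The full element was present in 1.79% of 32851 promoters of this length, and the core in 20.8%. In rat, Cycs is known to be driven by CREB, the factor that binds this element. Casp9 had 4 GC boxes and Apaf1 had 3, with no core in either, while Diablo had 1 GC box and 2 cores, and the GC box was present in 35.7% of all windows. Both strands were searched, and a match is a description of the letters only.

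Cycs was the 1 gene of the 7 that was called. It encodes cytochrome c, which carries electrons between complexes III and IV of the respiratory chain and, once in the cytosol, binds Apaf1. The gene (ENSMUSG00000063694) lies on chromosome 6 from 50562563 to 50566538, minus strand. Its level was 12.2, 15.2, 11.0 and 15.7 FPKM in iPKO 1 to 4, against 21.8, 17.8, 19.1 and 16.8 FPKM in iPHet 1 to 4. Every iPKO library was below every iPHet library, though iPKO 4 and iPHet 4 were close. The mean was 13.5 ± 2.32 FPKM in iPKO and 18.9 ± 2.18 FPKM in iPHet (SD, n = 4 each), which was 1.39-fold lower. On the log2 scale Cycs fell by 0.46 (SE 0.13, limma adjusted p = 0.047).

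The call of Cycs lay close to the threshold. With the replicate number as a block the limma adjusted p was 0.0774, with no filter on low values 0.0719, with quantile normalization 0.073 and with each library centred on its median 0.0788. Leaving out 1 library gave 0.0437 without iPKO 4 and 0.0543 to 0.111 without each of the other 7, and with libraries 1 and 3, and 2 and 4, of a genotype averaged it was 0.591. With 1 of 7 genes called, the share was near the background: in the same test 15.8% of all tested genes passed, 6.3% higher and 9.53% lower in iPKO. Of the 7 genes 4 had an unadjusted p under 0.05, as did 31.5% of all tested genes. Processed pseudogenes of Cycs are annotated in GENCODE, so its value is uncertain where reads were shared with copies.

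The fall of Cycs was uneven over the libraries. In the odd-numbered libraries the mean was 11.6 FPKM in iPKO and 20.4 FPKM in iPHet, a ratio of 0.567. In the even-numbered ones it was 15.5 FPKM in iPKO and 17.3 FPKM in iPHet, a ratio of 0.896. The log2 difference was -0.77 in odd and -0.15 in even libraries, and the 2 differed by -0.62 (SE 0.11, limma adjusted p = 0.0108, a test added after the data were seen). Such a difference was called for 28.5% of tested genes, so it is no mark of Cycs. The deposited bounds of iPKO 4 (13.6 to 17.9 FPKM) and iPHet 4 (14.4 to 19.1 FPKM) overlapped, while those of iPKO 1 (10.6 to 13.8 FPKM) and iPHet 1 (19.4 to 24.2 FPKM) did not.

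**Figure D1:**
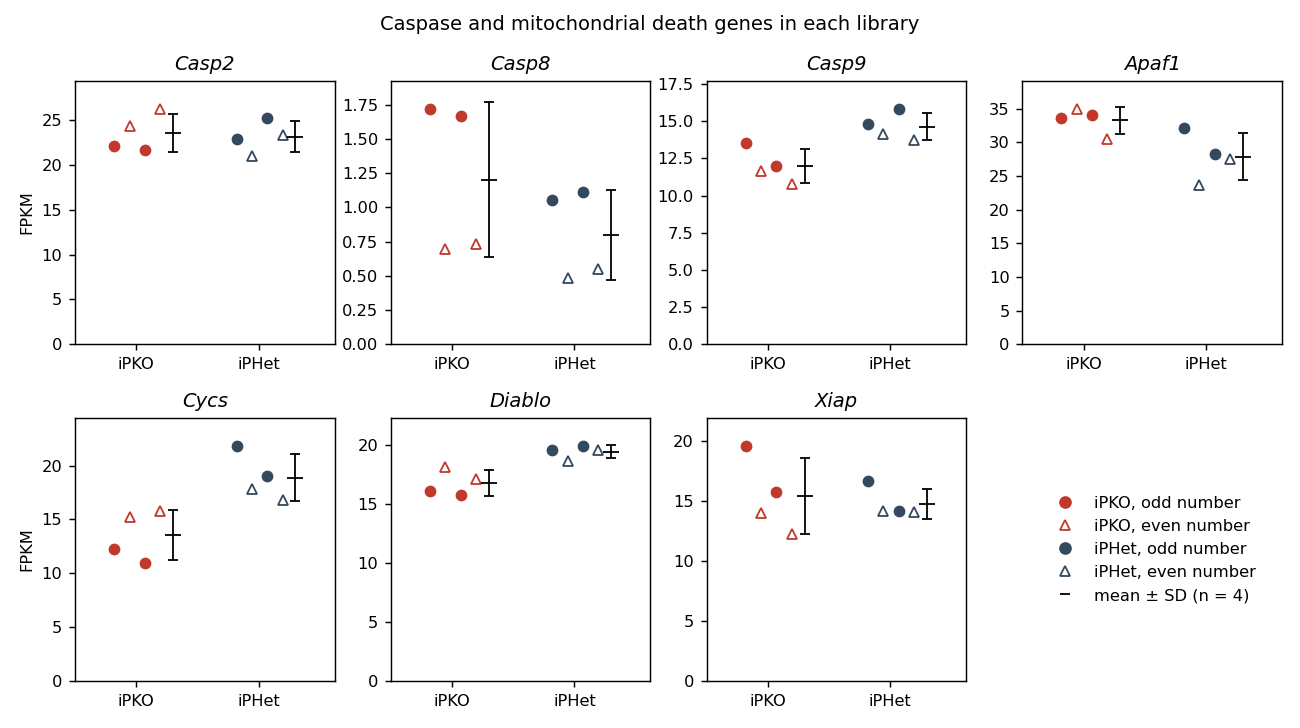
FPKM of the 7 genes in each library, iPKO left and iPHet right, with circles for odd-numbered and open triangles for even-numbered libraries and the mean ± SD (n = 4) beside them; the axes start at 0 and differ between genes. The Cycs points of iPKO (11.0 to 15.7 FPKM) lie below those of iPHet (16.8 to 21.8 FPKM), and the Casp8 points split by number within each genotype.

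Apaf1, the scaffold of the apoptosome, was the most abundant of the 7 per length in both genotypes. The gene (ENSMUSG00000019979) lies on chromosome 10 from 90989311 to 91082770, minus strand. Its level was 33.6, 34.9, 34.0 and 30.4 FPKM in iPKO 1 to 4, against 32.1, 23.6, 28.3 and 27.6 FPKM in iPHet 1 to 4. The groups overlapped through iPKO 4 and iPHet 1. The mean was 33.2 ± 1.95 FPKM in iPKO and 27.9 ± 3.47 FPKM in iPHet (SD, n = 4 each), a ratio of 1.19 with a log2 difference of 0.25 (SE 0.09, limma adjusted p = 0.109), not called. Of the alternatives run, quantile normalization was the one that moved it past the threshold (limma adjusted p = 0.0494).

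Casp9, the caspase that the apoptosome activates, had no iPKO value inside its iPHet range, and missed the threshold. The gene (ENSMUSG00000028914) lies on chromosome 4 from 141793612 to 141815976, plus strand. Its level was 13.5, 11.7, 12.0 and 10.8 FPKM in iPKO 1 to 4, against 14.8, 14.1, 15.8 and 13.7 FPKM in iPHet 1 to 4. The highest iPKO value lay just under the lowest iPHet value. The mean was 12.0 ± 1.14 FPKM in iPKO and 14.6 ± 0.904 FPKM in iPHet (SD, n = 4 each), with a log2 difference of -0.27 (SE 0.08, limma adjusted p = 0.0538). With the replicate number as a block Casp9 was called, with limma adjusted p = 0.0277. The ratio of the means was 0.832 in odd and 0.806 in even libraries, the most even of the 3 genes that did not overlap.

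For Casp9 the deposited numbers disagree among themselves. Its FPKM lay above its own upper bound in 6 of 8 libraries, all 4 of iPKO and iPHet 1 and 3, and 24.6% of all values of tested genes lay outside their own bounds, on either side. Taking the midpoint of the bounds instead, a choice made after this was seen, gave 9.57 ± 0.774 FPKM in iPKO and 13.0 ± 0.776 FPKM in iPHet (SD, n = 4 each). With midpoints for all genes Casp9 was called, with a log2 difference of -0.41 (limma adjusted p = 0.011). The direction was the same with both kinds of value. Casp9 overlaps Ctrc and Cela2a on the other strand, of which Cela2a averaged 0.770 FPKM in iPKO and 0.152 FPKM in iPHet. Strand use in the counting is not given in the sources used here, so reads of these genes cannot be told apart, and the part of this in the result was not tested.

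**Figure D2:**
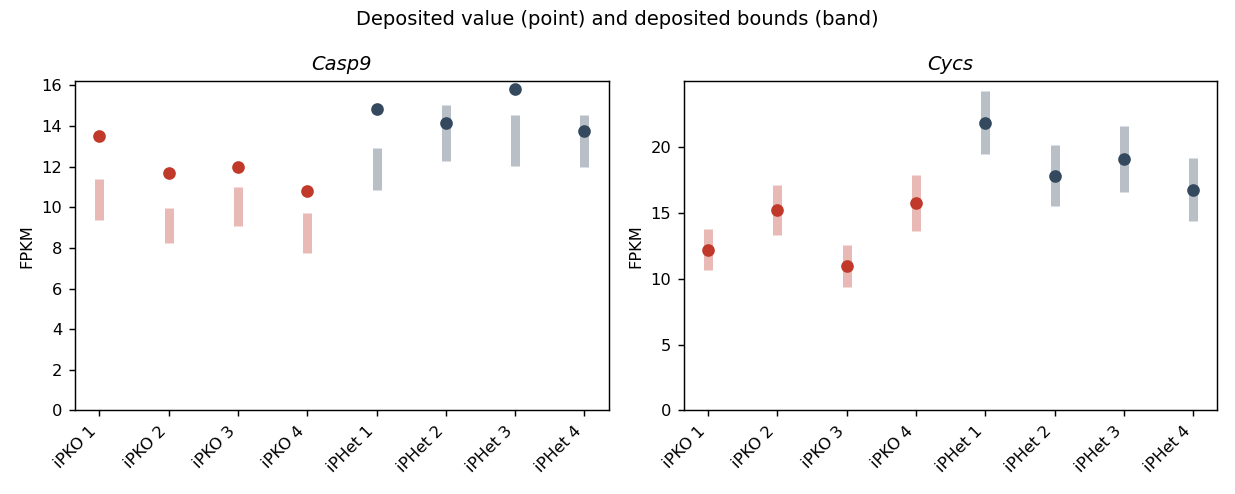
Deposited FPKM (points) and deposited lower and upper bounds (bands) of Casp9 and Cycs in the 4 iPKO (red) and 4 iPHet (blue-grey) libraries. The points of Casp9 lie above their bands in 6 of 8 libraries, and those of Cycs lie inside in all 8.

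The ratio of Cycs to Apaf1, the 2 partners of the apoptosome core, separated the genotypes. It was 0.363, 0.437, 0.322 and 0.517 in iPKO 1 to 4, against 0.681, 0.755, 0.674 and 0.608 in iPHet 1 to 4. No iPKO value reached the iPHet range. Cycs alone already had no overlap and Apaf1 differed in the other direction, so the ratio adds no independent result. Of single tested genes 25.1% had no overlap, and the share among ratios of 2 genes was not computed. The mean ratio was 0.41 ± 0.0857 in iPKO and 0.679 ± 0.0603 in iPHet (SD, n = 4 each), a log2 difference of -0.75. The exact permutation test, two-sided, had p = 0.0286, which is the lowest value possible with 4 libraries each, and p = 0.0571 after adjustment over the 2 ratios compared. Were libraries 1 and 3, and 2 and 4, taken as 1 unit each, an exact test could not go below p = 0.333. An exact paired permutation test, exchanging the genotypes only within a replicate number and added after the data were seen, had p = 0.125, the lowest that 4 pairs allow.

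Diablo, the intermembrane space protein that frees caspases from Xiap, was lower in every iPKO library, and was not called. The gene (ENSMUSG00000029433) lies on chromosome 5 from 123509765 to 123524176, minus strand. Its level was 16.1, 18.1, 15.8 and 17.1 FPKM in iPKO 1 to 4, against 19.5, 18.7, 19.9 and 19.6 FPKM in iPHet 1 to 4. The iPHet libraries lay within a narrow band, and iPKO 2 came close to it. The mean was 16.8 ± 1.08 FPKM in iPKO and 19.4 ± 0.531 FPKM in iPHet (SD, n = 4 each), with a log2 difference of -0.20 (SE 0.06, limma adjusted p = 0.0585). The ratio of the means was 0.808 in odd and 0.923 in even libraries. Diablo overlaps Gm15751 on the other strand, which rose to 4.62 FPKM in iPKO, against 1.72 FPKM in iPHet (limma adjusted p = 0.00342), and B3gnt4, at 0.601 FPKM in iPKO and 0.421 FPKM in iPHet. The part of these overlaps in the Diablo value was not tested.

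Cycs, Casp9 and Diablo were thus the 3 of 7 genes with no overlap between the genotypes, all lower in iPKO, where 25.1% of tested genes had no overlap and 15% had none and were lower. With a minimum of 5 FPKM, under which fewer genes are tested, these 3 were called (limma adjusted p of 0.0401 for Cycs, 0.0455 for Casp9 and 0.0479 for Diablo), beside 18.4% of the genes tested there. The odd libraries alone called Casp8, Cycs and Diablo, where 45.4% of genes were called, and the even ones alone called Casp9, where 40.2% were. Other settings called 0 to 2 of the 7. Their backgrounds were 16.1% with a pseudocount of 0.1, 9.02% with no filter, 15.1% with quantile normalization, 14.3% with median centring, 27.5% with the replicate block and 16.5% with the midpoints of the bounds. They were 0.0562% with the averages of libraries 1 and 3 and of 2 and 4, 0.0481% with an odd/even term added, 1.77% with that term over protein-coding genes and 0.417% with a correlation estimated within these pairs. Without single libraries 10.1 to 11.4% of genes were called (10.5, 11.3, 11.4 and 11.2% without iPKO 1 to 4, and 10.9, 11.2, 11.0 and 10.1% without iPHet 1 to 4).

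Xiap, the inhibitor that binds caspases through its BIR domains, was not called. The gene (ENSMUSG00000025860) lies on chromosome X from 42059679 to 42109656, plus strand. Its level was 19.6, 14.0, 15.8 and 12.2 FPKM in iPKO 1 to 4, against 16.6, 14.2, 14.2 and 14.1 FPKM in iPHet 1 to 4. The iPKO libraries spread on both sides of the iPHet ones. The mean was 15.4 ± 3.14 FPKM in iPKO and 14.8 ± 1.24 FPKM in iPHet (SD, n = 4 each), with a log2 difference of 0.04 (limma adjusted p = 0.87) and a 95% interval of 0.832 to 1.27 for the fold of FPKM + 1. The ratio of the means was 1.15 in odd and 0.927 in even libraries. The FPKM of iPKO 1 lay above its own upper bound of 18.5 FPKM. The ratio of Diablo to Xiap was 0.82, 1.3, 1.00 and 1.4 in iPKO 1 to 4, against 1.17, 1.32, 1.4 and 1.39 in iPHet 1 to 4. These groups overlapped, with an exact two-sided permutation p = 0.229 for a log2 difference of -0.25, and without iPKO 1 the difference was -0.11. The exact paired permutation test had p = 0.25.

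**Figure D3:**
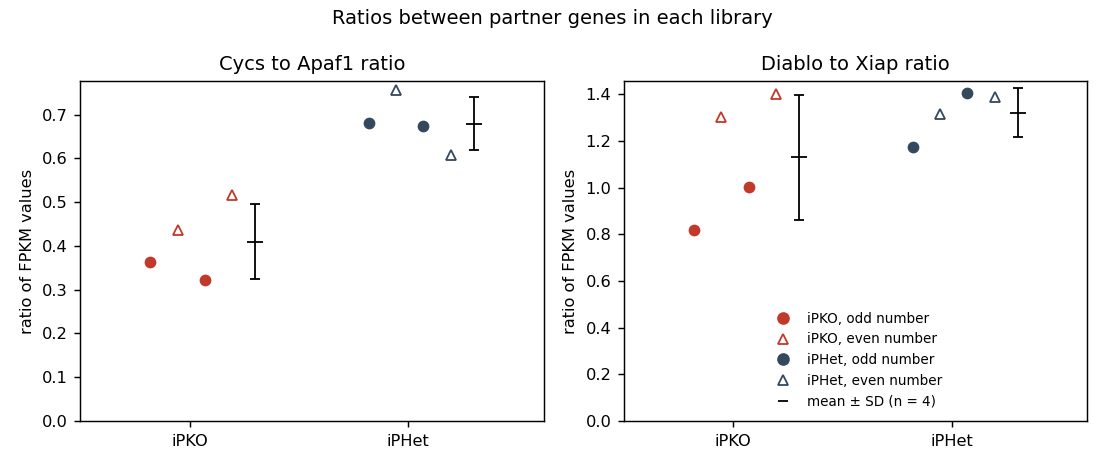
Ratios of FPKM values per library, Cycs to Apaf1 and Diablo to Xiap, iPKO left and iPHet right, with circles for odd-numbered and open triangles for even-numbered libraries and the mean ± SD (n = 4). The Cycs to Apaf1 ratios of iPKO (0.322 to 0.517) lie below those of iPHet (0.608 to 0.755), and the Diablo to Xiap ratios overlap.

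Casp2, the caspase of the PIDDosome, did not pass the test. The gene (ENSMUSG00000029863) lies on chromosome 6 from 42264985 to 42282508, plus strand. Its level was 22.1, 24.4, 21.7 and 26.2 FPKM in iPKO 1 to 4, against 22.9, 21.0, 25.3 and 23.3 FPKM in iPHet 1 to 4. The ranges covered each other almost fully. The mean was 23.6 ± 2.11 FPKM in iPKO and 23.1 ± 1.74 FPKM in iPHet (SD, n = 4 each), with a log2 difference of 0.03 (limma adjusted p = 0.861) and a 95% interval of 0.893 to 1.16 for the fold. The ratio was 0.908 in odd and 1.14 in even libraries, and within each number class the genotypes did not overlap. With 2 libraries against 2, an exact permutation test cannot go below p = 0.333, so such a separation says little.

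Casp8, the caspase of death receptors, was the lowest of the 7 and the one with the highest ratio of odd to even libraries. The gene (ENSMUSG00000026029) lies on chromosome 1 from 58795374 to 58847503, plus strand. Its level was 1.72, 0.696, 1.67 and 0.730 FPKM in iPKO 1 to 4, against 1.06, 0.486, 1.11 and 0.546 FPKM in iPHet 1 to 4. Odd libraries held 2.37 times the even ones in iPKO and 2.1 times in iPHet, and within each number class both iPKO values lay above both iPHet values. Within a number class such a separation says little, and most of the 7 genes showed it, in either direction. The share over all tested genes was not computed, so this is no result about the 7 genes. The mean was 1.2 ± 0.565 FPKM in iPKO and 0.799 ± 0.329 FPKM in iPHet (SD, n = 4 each), with a log2 difference of 0.27 (SE 0.22, limma adjusted p = 0.438), not called, and a 95% interval of 0.853 to 1.71 for the fold of FPKM + 1. The difference was 0.16 without iPKO 1 and 0.50 with a pseudocount of 0.1. Casp8 passed the minimum of 1 FPKM through the iPKO mean only. The ratio was 1.56 in odd and 1.38 in even libraries. With the replicate number as a block the limma adjusted p was 0.0965, and in odd libraries alone 0.0308.

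Per length, the order of the means was Apaf1, Casp2, Diablo, Xiap, Cycs, Casp9 and Casp8 in iPKO, and Apaf1, Casp2, Diablo, Cycs, Xiap, Casp9 and Casp8 in iPHet. In iPKO the neighbours Diablo and Xiap, Xiap and Cycs, and Cycs and Casp9 overlapped in range. In iPHet Apaf1 overlapped with Casp2, Diablo with Cycs, and Xiap with Casp9. Cycs lay above Xiap in all 4 iPHet libraries and in 2 of 4 iPKO libraries.

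**Figure D4:**
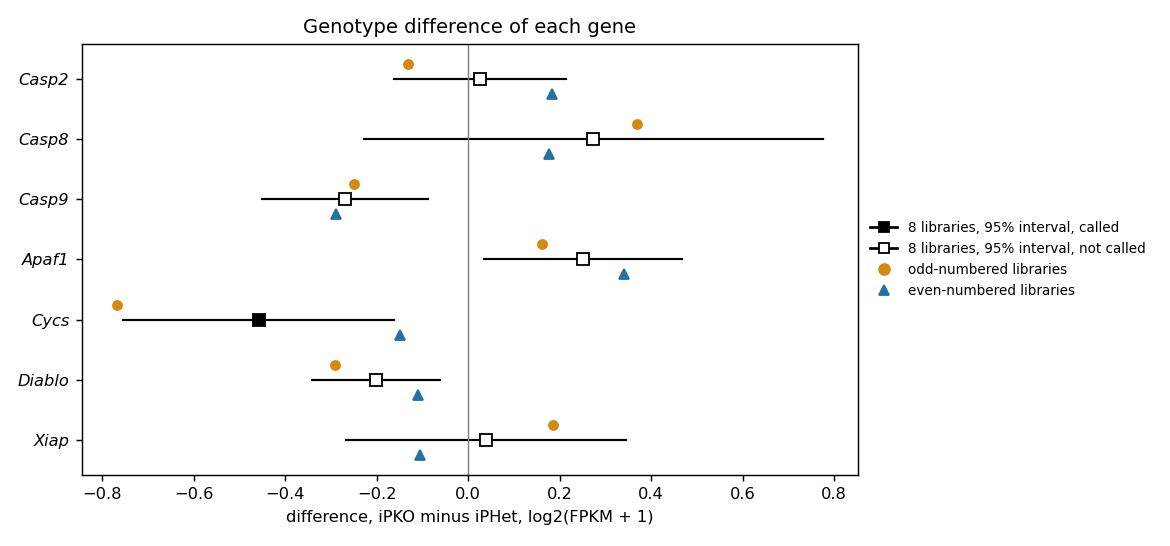
Difference iPKO minus iPHet of each gene on the log2(FPKM + 1) scale: squares with 95% intervals from all 8 libraries (filled where called), circles from the odd-numbered and triangles from the even-numbered libraries. Cycs is the 1 filled square, at -0.46, and Casp2 and Xiap change side between the number classes.

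Beside these genes, the other inhibitors of apoptosis held 3 called genes. Of 11 listed genes 7 were tested, 3 rose and 0 fell, with a median log2 difference of 0.38, beside -0.04 over all tested genes, and 5 had an unadjusted p under 0.05. Over all tested genes 6.3% were called higher and 9.53% lower, and 31.5% had an unadjusted p under 0.05. Birc2, a ubiquitin ligase that holds back death signals from TNF receptors, rose to 25.8 ± 1.01 FPKM in iPKO, against 19.3 ± 1.14 FPKM in iPHet (SD, n = 4 each, limma adjusted p = 0.00513). Its neighbour on chromosome 9 and close paralog Birc3, with which it may share reads, rose to 5.35 ± 2.01 FPKM in iPKO, against 2.15 ± 0.441 FPKM in iPHet (SD, n = 4 each, limma adjusted p = 0.027). Bfar, a membrane protein that binds caspase-8 and BCL2, rose to 12.8 ± 1.01 FPKM in iPKO, against 9.64 ± 1.13 FPKM in iPHet (SD, n = 4 each, limma adjusted p = 0.0303). Birc6, Cflar, Birc7 and Birc5 were not called, and the 4 Naip genes, which are close copies of each other, were at most 0.0623 FPKM. Birc2 was called whichever library was left out. Birc3 was not called without iPKO 1 or 3 or without iPHet 2, 3 or 4 (limma adjusted p up to 0.0705), and Bfar was called only without iPHet 2 or 4 (up to 0.0722 without the others). These 3 calls held with quantile normalization and with median centring. With no filter on low values Birc3 was not called (limma adjusted p = 0.0503). All 3 calls ended with libraries 1 and 3, and 2 and 4, averaged. With a correlation estimated within these pairs the limma adjusted p was 0.226 for Birc2, 0.34 for Birc3 and 0.493 for Bfar.

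Both tested genes of the PIDDosome were called, in opposite directions, where 15.8% of all tested genes were called. Lrdd, the current Pidd1 and the platform that recruits caspase-2, rose to 40.3 ± 3.31 FPKM in iPKO, against 25.4 ± 1.08 FPKM in iPHet (SD, n = 4 each, limma adjusted p = 0.00147). Cradd, the adaptor between Pidd1 and caspase-2, fell to 3.13 ± 0.47 FPKM in iPKO, against 5.26 ± 1.06 FPKM in iPHet (SD, n = 4 each, limma adjusted p = 0.0252). Lrdd was called whichever library was left out. The call of Cradd ended without iPKO 1, 2 or 3 or without iPHet 1 or 3 (limma adjusted p up to 0.0658), and in the even libraries alone. Both calls ended in the 3 fits of averages and with a correlation estimated within those pairs (limma adjusted p = 0.147 for Lrdd and 0.378 for Cradd).

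Among 12 caspase substrates and factors of nuclear breakdown 2 rose and 2 fell, beside 6.3% of all tested genes called higher and 9.53% lower. Dffa, the inhibitor and chaperone of the apoptotic nuclease, fell to 9.1 ± 0.773 FPKM in iPKO, against 12.9 ± 0.191 FPKM in iPHet (SD, n = 4 each, limma adjusted p = 0.00455). Dffb, the nuclease itself, rose to 11.0 ± 1.24 FPKM in iPKO, against 8.63 ± 0.623 FPKM in iPHet (SD, n = 4 each, limma adjusted p = 0.0491), a call that ended with the replicate number as a block (0.0745) and whichever library was left out (0.0522 to 0.118). Panx1, a channel opened by caspases, fell to 12.2 ± 1.43 FPKM in iPKO, against 16.0 ± 0.357 FPKM in iPHet (SD, n = 4 each, limma adjusted p = 0.0194). Acin1, a splicing protein that caspases cleave during chromatin condensation, rose to 153 ± 9.61 FPKM in iPKO, against 123 ± 9.31 FPKM in iPHet (SD, n = 4 each, limma adjusted p = 0.0297), and stayed called only without iPKO 1 or iPHet 4 (up to 0.0721 without the others). Panx1 was not called without iPHet 2 (0.0512). All 4 calls ended in the 3 fits of averages, and with the estimated correlation the limma adjusted p was 0.173 for Dffa, 0.232 for Panx1, 0.369 for Acin1 and 0.429 for Dffb.

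The remaining lists held few or no calls in the same limma fit, where 15.8% of all tested genes were called. Casp1, Casp4 and Casp12, caspases of inflammation and stress, were listed at 0 in all 8 libraries. Of 12 tested partners of cytochrome c in respiration only Cyc1, the cytochrome of complex III, was called. It fell to 78.9 ± 8.37 FPKM in iPKO, against 95.6 ± 0.867 FPKM in iPHet (SD, n = 4 each, limma adjusted p = 0.044), a call that held without iPKO 4 and ended without each of the other 7 libraries (limma adjusted p up to 0.104), with no filter, under both rescalings, in the fits of averages (0.291 to 0.648), in even libraries alone and with the estimated correlation (0.5).

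Of 10 tested factors of the intermembrane space and its membranes 0 were called, 2 with an unadjusted p under 0.05. Over all tested genes 15.8% were called and 31.5% had an unadjusted p under 0.05, and lists this short cannot be set apart from these shares. Htra2, a released protease that also binds Xiap, was 18.8 ± 5.08 FPKM in iPKO and 28.9 ± 6.31 FPKM in iPHet (SD, n = 4 each, limma adjusted p = 0.0829), and was called with the replicate number as a block (0.0102), and not in the fits of averages (0.0633 to 0.605) or with the estimated correlation (0.494). Of 7 tested death receptor genes 0 were called, 1 with an unadjusted p under 0.05. That was Tnfrsf21, a receptor with a death domain, at 19.1 ± 2.5 FPKM in iPKO and 24.5 ± 1.95 FPKM in iPHet (SD, n = 4 each, limma adjusted p = 0.0504), called with the replicate number as a block (0.00911), and not in the fits of averages (0.184 to 0.63) or with the estimated correlation (0.285). Fas, Fasl and Fadd were at most 1.03 FPKM in any library and were not tested. Of the pore genes Bax and Bak1 were tested and 0 called, none with an unadjusted p under 0.05, Bak1 at 15.6 ± 1.31 FPKM in iPKO and 17.9 ± 4.11 FPKM in iPHet (SD, n = 4 each). Of 8 tested modifiers of the apoptosome 1 was called, Prmt5, the targeted gene.

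**Figure D5:**
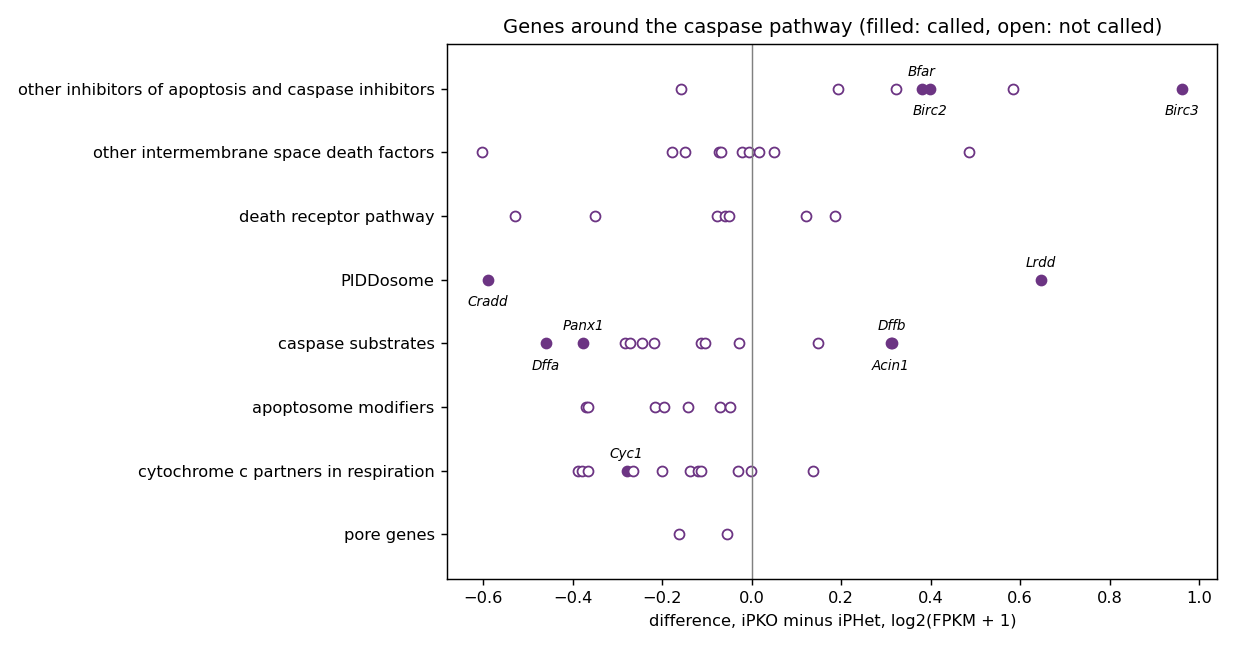
Difference iPKO minus iPHet on the log2(FPKM + 1) scale for the tested genes of 8 lists around the caspase pathway, Prmt5 left out, 1 point per gene and filled and named where called. All 3 called inhibitors of apoptosis lie right of 0 (higher in iPKO), and the called substrates lie on both sides.

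Among 8095 named protein-coding genes averaging 5 FPKM or more in either genotype, the profiles most like each of the 7 were found by the root mean square difference of centred log2(FPKM + 1) values over the 8 libraries. Nearest to Cycs were Ndufs6, a subunit of complex I, at 0.046 and Uxt, a prefoldin-like chaperone, at 0.05, against a spread of 0.29 of Cycs about its own mean. Nearest to Casp9 were Sypl (0.044) and Rint1 (0.048), and to Diablo Pwwp2a (0.036) and Slc25a15, the mitochondrial ornithine carrier (0.036). Apaf1 was nearest to Gpatch1 (0.057) and Paip1 (0.064), and Xiap to Abca2 (0.057) and Foxd3 (0.072). Casp2 was near to Smg9 (0.042), and Casp8 nearest to Fam102a (0.054) and Itm2c (0.055). The 8 values behind each distance include the genotype and the odd/even split that most genes share.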

How the data were processed

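Total RNA was made into Illumina TruSeq libraries and read in pairs, per the labels' protocols. Trimmomatic and mm10 are named in the submitters' processing notes, and no aligner, quantifier, version or strand setting is given in the sources used here. The authors deposited 1 FPKM value for each gene in each library, beside its bounds, per the file headers. Depth is therefore unknown, and its part in the precision of low genes cannot be judged. The bounds are a limited guide, as 24.6% of values of tested genes lay outside their own. Each file held 39013 rows for 38991 identifiers, and the rows of 19 identifiers with several loci were summed.

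Genes averaging 1 FPKM or more in iPKO or in iPHet (12462) were tested on log2(FPKM + 1) with limma 3.58.1 and an intensity trend in R 4.3.3, all 8 libraries and no covariate. The fit was also run on simulated data with independent noise in each library and no odd/even split. That run cannot show how the p-values behave under the split seen here. Ratios were compared with exact permutation tests (scipy 1.17.1). Alternatives were another pseudocount (0.1), other minimums (none, 5 FPKM), rescaling, a replicate block, averages of libraries 1 and 3 and of 2 and 4, an estimated correlation within those, odd or even libraries only and each library left out.

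Deviations of same-numbered libraries from their genotype means correlated at 0.104 to 0.204, all above the limit of 0.1. Between different numbers of the same parity the correlations were 0.077 to 0.124. These ranges overlap, so a pairing by number is not clearly set apart from the odd/even split. The main fit and its calls ignore a pairing. The replicate block and the paired permutation test take the numbers to pair the libraries. This pairing comes from the data, not the labels.

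Named genes were the 7 genes and Prmt5; of each list the called genes (at most 4, by p) or, with none called, the smallest p; and the 2 nearest profiles of each of the 7, leaving out unnamed genes and small RNAs. Some genes that this rule names are not reported here. Midpoints of the bounds and the fit of genotype, odd or even number and their product, and the paired permutation test, were added after the data were seen. The genes and lists were chosen with earlier results of these data known. Cox4i1 had no row and Pidd1 is listed as Lrdd; Cox4i1 was not analysed here.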

Additional observations from a re-analysis of the deposited data

Results flagged for a closer look

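Xiap in iPHet 1, at 16.6 FPKM, stood apart from the other 3 iPHet libraries at 14.1 to 14.2 FPKM by Dixon's test. Chance alone would mark about 1 in 20 groups, and 44 groups of 4 libraries were looked at.

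The genotype difference (iPKO minus iPHet, log2) differed between odd- and even-numbered libraries for 5 of the genes named, in a limma fit with both terms and their product. The odd difference minus the even one was -0.62 for Cycs (adjusted p = 0.0108), -0.59 for Cradd, -0.38 for Dffb, -0.59 for Bak1 and 0.26 for Panx1. A difference of this kind was called for 28.5% of tested genes, and the labels do not say what the odd and even libraries share.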

How the results depend on the processing

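Over all genes 1973 were called. Leaving out each library in turn gave 1264 to 1416, the lowest without iPHet 4, and 1309 without iPKO 1. The replicate block gave 3427, odd libraries alone 5700 and even ones alone 4932. Averages of libraries 1 and 3 and of 2 and 4 gave 7, with an odd/even term 6, with that term over protein-coding genes 198, and a correlation estimated within them 52. The split of 785 higher and 1188 lower became 954 and 823 with median centring and 936 and 946 with quantile normalization. Of the 7 genes 1 was called. The number was 3 with a minimum of 5 FPKM (Casp9, Cycs and Diablo lower) and in odd libraries (Casp8 higher, Cycs and Diablo lower), 2 with the midpoints of the bounds, and 0 to 1 without single libraries. It was 0 with no filter, with median centring, in the 3 fits of averages and with an estimated correlation, in which 0 to 4 had an unadjusted p under 0.05. The 1 call was Casp9 with the replicate block, in even libraries and without iPKO 1, and Apaf1 with quantile normalization. Besides Cycs, Casp9, Dffb, Htra2 and Tnfrsf21, the block changed no call among the 7 genes, Prmt5 and the pathway genes reported from the lists; it was not looked at for the nearest profiles. Casp2 changed sign in odd libraries (-0.13) and ranged from -0.024 to 0.067 without single libraries, below 0 without iPKO 4 (-0.024) and iPHet 2 (-0.018). Xiap changed sign in even libraries (-0.11) and with the midpoints (-0.022), and ranged from -0.076 without iPKO 1 to 0.135 without iPKO 4. Bak1 was 0.13 in even libraries. Both ratios kept direction with a pseudocount of 1 and without each library (-0.87 to -0.64 and -0.37 to -0.11 on the log2 scale). Neither was under 0.05 after adjustment, in the main test or with that pseudocount. Without 1 library, an exact permutation test of 3 against 4 cannot go below p = 0.0571. The exact paired permutation test (p = 0.125 for Cycs to Apaf1 and 0.25 for Diablo to Xiap) cannot go below 0.125. These last settings could therefore not have passed the threshold. The causes were not tested, beyond the number of samples in the smaller fits.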
